A study of Mus musculus with 5 samples.

Results

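The KSL culture is the comparison of mutant with wild-type interleukin-7 receptor chain IL7R in cultured mouse KSL cells, a fraction that holds stem and early progenitor cells. It was measured on 1 two-colour microarray of the 5 in the series and was taken by the title of that array. Probes whose ID is M plus 9 digits were used, 23473 in all. The same contrast was made on the other arrays in cultured CLP cells, the lymphoid progenitors, after 5 to 7 days, and in transplanted cells on 3 arrays. These were pooled IgM+B220+ B cells that arose from CLP cells by about day 60 in recipients given sub-lethal irradiation of 4 Gy (the INS cells are labelled leukemic), pooled T-ALL cells that arose by day 30 to 40 from KSL cells with added intracellular Notch1, and the CMP fraction, a myeloid progenitor stage, pooled at about day 40 from KSL recipients with a myeloid disorder. Recipients of KSL cells were lethally irradiated.

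The KSL cells were Balb/c cells from bone marrow or fetal liver, abbreviated BM/FL in the labels, sorted and retrovirally transduced with IL7R-WT or with the mutant IL7R-INS. The labels do not spell out INS. Transduced cells grew for 4 to 5 days in IMDM with 20% FBS, mouse stem cell factor and thrombopoietin, human IL-6 and Flt3 ligand, and IL-3. No IL-7 is listed among these cytokines, whereas the CLP culture received human IL-7 and OP9 stroma. GFP+ cells were then sorted and pooled. The sample's free text begins with in vivo, but the title and everything after those words describe cells in vitro. Both groups carry an IL7R vector, so the contrast is mutant against added wild-type receptor, not against cells without a vector. INS was labelled with Cy3 and WT with Cy5, and ratios are given as INS over WT throughout.

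IL7R pairs with the common gamma chain to form the receptor for interleukin-7, and its engagement activates JAK1, JAK3 and STAT5, which sustain survival and proliferation of lymphoid precursors. In mice the receptor is normally found on CLP cells and early B- and T-lineage cells and is low or absent on KSL cells, which depend on signals such as stem cell factor and thrombopoietin. Activating mutations of the human IL7R gene, insertions among them, are known from acute lymphoblastic leukemia.

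The comparison has 1 array and no replicate or dye swap. No spread between cultures was measured and no p-value was computed. Genotype and dye cannot be told apart. The files do not pair probe IDs with genes, and the reference gene table held 0 of the 23473 IDs. The KSL label could therefore not be checked against marker genes, and the level of Il7r is not given. Of the probes, 2 IDs that were higher and 2 that were lower are printed, and the others are given by rank. No probe sequence is printed, since the files used here hold none.

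Blank spots set the lower end of the scale: the detection limit, 2 SD above their mean, was 72.4 in INS and 18.7 in WT. Of the probes, 76.8% were detected in INS and 79.5% in WT, 17435 in both, 586 in INS alone and 1223 in WT alone. Spots that carry no probe passed the same limits in 18.9% of cases in INS and 45.2% in WT, with signals up to 117 and 42. The 24 spots of each positive control had mean log2 ratios of 0.46 ± 0.08 and -0.77 ± 0.11 (SD over spots of this array). The controls, whose targets were not stated, lay on opposite sides of 0. The only probe spotted 2 times had log2 ratios of 0.33 (signal 217 against 66) and 0.09 (191 against 71).

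INS and WT KSL cells had very similar profiles, and the largest differences were probes higher in INS. A 2-fold rise in INS was reached by 31 (0.161%) of 19244 probes detected in at least 1 channel, and a 2-fold drop by 4 (0.0208%). At 1.5-fold the numbers were 172 (0.894%) higher and 29 (0.151%) lower. At 3-fold 10 probes were higher and none lower, and at 16-fold 4 were higher and none lower. These are counts of single spots on this array, compressed somewhat by the offset that the background correction adds. With the blank mean subtracted and no offset, a setting added after the data had been seen, 709 were higher and 663 lower. Taking off the local background instead gave 1193 and 1202. The higher share of 2-fold probes was thus 88.6% with the offset, 51.7% without the blank mean and 49.8% without the local background.

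With the offset in use, the 31 higher probes lay in the upper part of the intensity range and the 4 lower ones at its top. With detected probes cut into 10 bins of about equal size by intensity, the 4 dimmest bins held none of the 31 and the brightest bin held 5 of them. The offset narrows the ratios of dim probes, so the empty dim bins do not show that dim probes were unchanged. Intensity is the mean of both channels, so a raised INS signal also moves a probe to a brighter bin. The place of 2-fold probes without the offset was not tested. All 4 lower probes fell in the brightest bin. All 31 were detected in both channels. Their signals ran from 196 to 13290 in INS (median 1913) and from 22 to 2136 in WT (median 260), and 9 of them had a WT signal under 100. The SD of the log2 ratio was 0.10 in the dimmest bin, where the offset also narrows it, and 0.28 in the brightest. Near the 2-fold line the values followed each other closely. The probes just inside it were 2.01-fold, 2.01-fold and 2.04-fold higher, and those just outside were 1.98-fold, 1.98-fold and 1.96-fold higher. On the lower side 2.13-fold was the last inside and 1.91-fold the first outside.

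**Figure D1:**
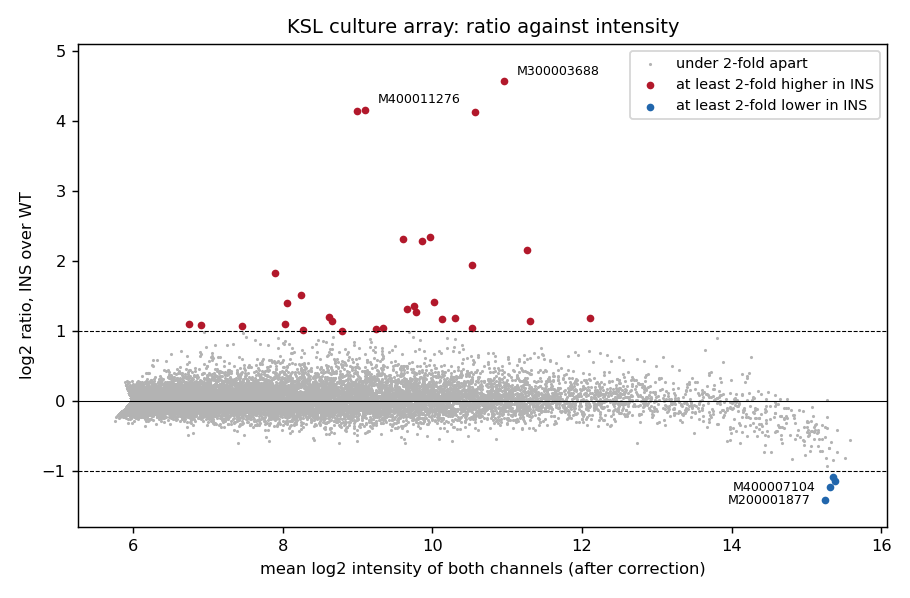
Log2 ratio of INS over WT (vertical axis) against the mean log2 intensity of both channels (horizontal axis) for the 19244 detected probes of the KSL culture array, 1 point per probe. The 31 red probes are at least 2-fold higher in INS and the 4 blue ones at least 2-fold lower. Ratios of the brightest probes bend below 0.

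Ranked by ratio, the 31 higher probes fell into steps. Ranks 1 to 4 were 17.5-fold to 23.7-fold higher in INS, ranks 5 to 10 were 3.54-fold to 5.07-fold higher, and ranks 11 to 31 were 2.01-fold to 2.86-fold higher. No probe lay between 5.07-fold and 17.5-fold. These steps were drawn after the values had been seen and carry no test.

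M300003688 had the highest ratio of the KSL culture. Its signal was 13290 in INS and 260 in WT, a log2 ratio of 4.56 or 23.7-fold higher. The pixels within the spot had an SD of 19.4% of the signal in INS and 19.2% in WT, which describes that spot and not the cultures. The local background around the spot was 5216 in INS and 113 in WT, and with it subtracted the fold was 30.8. Across the other settings the fold ran from 22.8 to 31.1, and the authors' deposited table gives a log2 ratio of 4.68.

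On the other arrays M300003688 had a signal of at most 752. Its signal in the CLP culture was 136 in INS and 120 in WT. In the CMP it was 137 and 200, and in T-ALL 211 and 256. In the B cells it was 752 in INS and 236 in WT. Set over the mean of the blank spots of its own channel, the INS KSL signal was 205 times the blank and the WT KSL signal 16.4 times. The other 8 samples lay between 3.19 and 15.8 times. The INS KSL cells thus stood alone, and WT KSL cells lay close to WT of T-ALL, the B cells and the CMP. Scanner gains differed between arrays, so an order among those samples was not drawn.

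M400011276 came next: INS gave 3193 and WT 56, 17.8-fold higher. Its WT signal was 2.99 times the detection limit, the local background was 558 in INS and 16 in WT, and the fold ran from 16.3 to 37.1 across the other settings. The authors' deposited table gives a log2 ratio of 5.20, or 36.8-fold. On the other arrays its signal was at most 185, in INS B cells, against 45 in WT B cells. In the CLP culture it was not detected in either channel, with 44 in INS and 17 in WT. It had 40 and 16 in the CMP and 86 and 63 in T-ALL.

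Ranks 3 and 4 had a similar pattern. The rank 3 probe had signals of 2955 in INS and 50 in WT in the KSL culture (17.6-fold), and the rank 4 probe 8804 and 226 (17.5-fold). In T-ALL the 4 probes of this step were all below 0 in INS, with log2 ratios from -1.63 to -0.73, and 2 of the 4 were at least 2-fold lower there, where 0.599% of probes were. In the B cells all 4 were above 0, from 0.58 to 0.79, and none was 2-fold apart. In the authors' deposited table the 4 ran from -2.24 to -1.75 in T-ALL and from 0.88 to 1.41 in the B cells. The 2-fold calls on these arrays thus depend on the processing. In the CMP the 4 log2 ratios ran from -0.40 to 0.16, and from -0.73 to 2.31 in that table. In the CLP culture 3 were detected, with log2 ratios from -0.28 to 0.38, and from -0.50 to 1.51 in that table. The large INS signal of this step was thus seen in the KSL culture, and on none of the other 4 arrays did a probe of it exceed a signal of 825 in INS.

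Of the 4 probes, rank 3 lies in block 22 of the 24 printing blocks and ranks 1, 2 and 4 in block 23. Blocks 22 and 23 hold 3 higher probes each, so all 3 of block 23 belong to this step. Ranks 2 and 4 share row 9, in columns 97 and 103. The 32 spots that surround the 4 probes had log2 ratios from -0.43 to 0.27, with medians of 0.00 to 0.06 around each probe. With loess fitted within printing blocks, the median log2 ratio of the 4 was 4.17, against 4.14 in the main setting. The spots next to the 4 were thus not raised. An effect limited to the 4 spots themselves was not tested.

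Ranks 5 to 10 were higher in INS in both cultures and near the blank level elsewhere. In the KSL culture their signals ran from 604 to 7109 in INS (median 2989) and from 57 to 814 in WT (median 276). In cultured CLP cells they ran from 188 to 2265 in INS (median 557) and from 23 to 165 in WT (median 63). All 6 were at least 2-fold higher in INS in the CLP culture, with log2 ratios from 1.54 to 3.22, where 5.04% of probes were. These probes are spread over 6 printing blocks.

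In transplanted cells these 6 had almost no signal. In the B cells they reached at most 58 in INS and 24 in WT, and in T-ALL at most 80 and 22. In the CMP they reached at most 36 and 16. The numbers detected in both channels were 2 of 6 in the B cells, 2 of 6 in T-ALL and 1 of 6 in the CMP. Their log2 ratios, where measured, lay between -0.31 and 0.15 on these 3 arrays, a range that the offset narrows at such signals. Where the authors' deposited table has values for them, these ran from -1.88 to -1.14 in the B cells and from -0.61 to 1.75 in T-ALL. In the CMP it gives 0.87 for rank 7. Levels in transplanted cells were thus at or near the detection limit in INS and in WT alike, where a difference was not detectable at this signal.

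**Figure D2:**
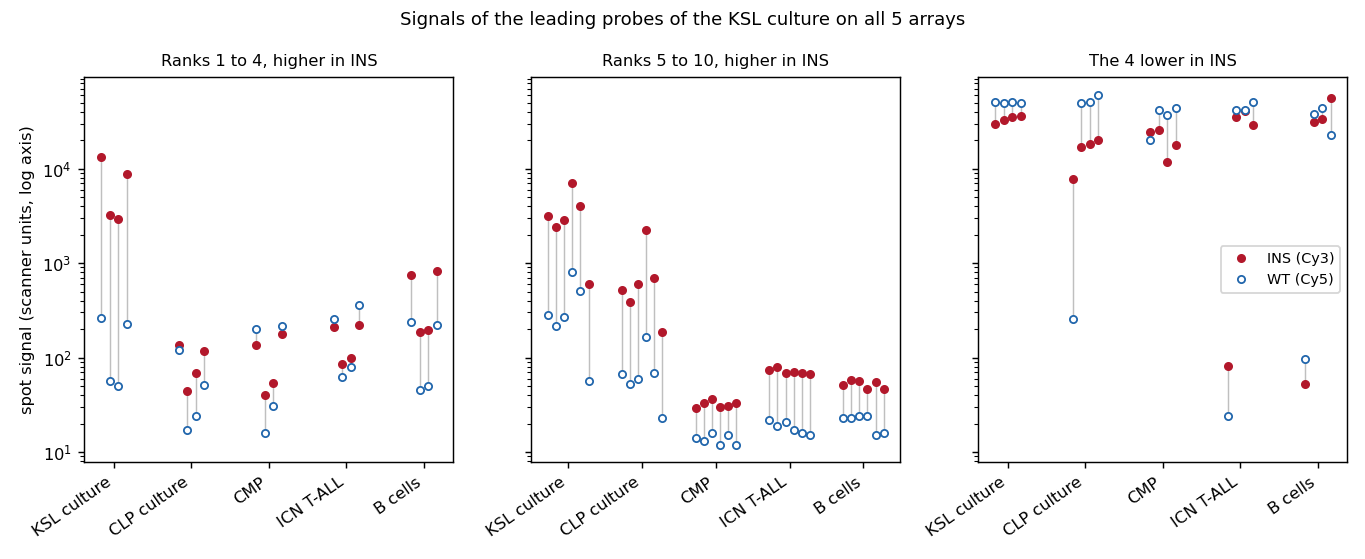
Spot signal (scanner units, log axis) on each of the 5 arrays for the probes of ranks 1 to 4, ranks 5 to 10 and the 4 lower probes of the KSL culture, with INS as filled red and WT as open blue points joined per probe. Ranks 1 to 4 are bright in INS KSL cells alone, and ranks 5 to 10 are higher in INS in both cultures and at most 80 in transplanted cells.

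Ranks 11 to 31 were mixed across settings. In cultured CLP cells 14 of these 21 also passed 2-fold in the higher direction (5.04% of all probes), and their log2 ratios there ran from -0.22 to 2.68 (median 1.38). In the B cells they ran from -3.45 to 5.35, with 3 at least 2-fold higher and 4 at least 2-fold lower, against 4.88% and 3.97% of all probes. None was 2-fold lower in the CLP culture (0.854% of all probes) or in the CMP (3.12%). In T-ALL 1 of the 21 was at least 2-fold higher (1.81% of all probes) and in the CMP 1 (3.03% of all probes). The offset shrinks the ratios of probes as dim as many of these were on those arrays. In the authors' deposited table, CMP log2 ratios ran from -1.70 to -1.25 for ranks 12, 13, 16 and 21. They ran from 1.24 to 1.97 for ranks 11, 18 and 24. In T-ALL that table gives 1.24 to 3.70 for ranks 13 to 16, 19, 21 and 26. Its other T-ALL values for this step ran from -0.22 to 0.89.

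Some of these probes stood apart by their pattern and are described by rank, chosen after their values had been seen. The rank 15 probe was at least 2-fold higher in INS on 4 of the 5 arrays. Its signals were 1766 in INS and 332 in WT in the KSL culture, 1368 and 226 for CLP cells, 412 and 24 for B cells and 500 and 34 for T-ALL. In the CMP it had 39 and 18, near the blank level, and a log2 ratio of 0.09. The rank 21 probe changed sides. It had 5116 in INS and 1204 in WT in the KSL culture and 2009 and 224 for CLP cells, but 176 and 1052 for B cells, where it was 10.9-fold lower.

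The rank 24 probe was dim in the KSL culture, with 196 in INS and 22 in WT, close to the WT limit. It was 40.9-fold higher in INS in the B cells (5433 against 30) and was bright in both T-ALL samples, with 11568 in INS and 4977 in WT. In the CLP culture it was 1.17-fold lower in INS, with 1940 and 1949. The rank 18 probe was the brightest of the 31 in WT. It had 8923 in INS and 2136 in WT in the KSL culture, and it was 2.06-fold higher in INS in the CMP and 2.86-fold lower in the B cells.

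Counted over the arrays, 20 of the 31 probes passed 2-fold in the same direction on 1 other array, 1 on 2 and 1 on 3, and 9 on none. Over all probes the higher shares were 5.04% for CLP cells, 4.88% for B cells, 1.81% for T-ALL and 3.03% for the CMP. The shared list with the CLP culture held 20 probes, 64.5% of the 31 and 1.97% of the probes higher there. Lower in INS by 2-fold on 1 other array were 6 of the 31, where the lower shares over all probes ran from 0.599% in T-ALL to 3.97% in B cells. Dye and genotype ran the same way on all 5 arrays, so a probe that favours Cy3 cannot be told apart from one higher with INS. Of the 31, 18 (58.1%) have IDs that start with M4, as do 34.1% of detected probes, and among the 10 highest 9 do. The labels do not say what the ID series stands for.

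The probes lower in INS were few and were the brightest of the array's WT channel or close to it. M200001877 gave 29746 in INS against 50993 in WT, a log2 ratio of -1.42 or 2.68-fold lower. M400007104 gave 33023 against 49939, 2.35-fold lower. The 4 lower probes had INS signals from 29746 to 35749 and WT signals from 49019 to 50993, a narrow band that ends at the highest WT value of the array. The highest value on any of the 5 arrays was 65535. Only 6 probes exceeded a WT signal of 48000 and 2 an INS signal of 48000.

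The normalization left the brightest probes below 0 as a group. Among the 100 brightest, the median log2 ratio was -0.41 and 96 lay below 0. Among the 20 brightest, 19 lay below 0, with a median of -0.67. Before normalization the log2 of the signal ratio had a median of 1.42 over detected probes, 0.26 over the 100 brightest and -0.03 over the 20 brightest. The 4 lower probes had raw values from -0.78 to -0.46. They lay within this bend of bright probes, and the part of the bend in their ratios was not tested. The authors' deposited table gives log2 ratios of -1.81 for M200001877 and -1.64 for M400007104.

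M200001877 changed sides between the cultures. In the CLP culture it was bright in INS and dim in WT, with 7837 and 254, 23-fold higher. In the CMP it was bright in both, with 24477 in INS and 20149 in WT and a log2 ratio of 0.02. In T-ALL it was near the blank level, with 82 and 24. In the B cells it was not detected in INS (52) but was in WT (96), at 6.34 times the blank mean. The pixels of that WT spot had an SD of 206% of the signal, so its value is doubtful. The probe was thus bright in all 4 samples that began as KSL cells without Notch1, and in the INS but not the WT sample of the CLP culture.

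M400007104 was bright in all 10 samples, from 17125 to 35546 in INS and from 38029 to 49939 in WT. Its log2 ratio was below 0 on each array, at -1.24 here, -1.37 for CLP cells, -1.10 for B cells, -0.79 for T-ALL and -1.01 for the CMP. Of the 4 lower probes, 3 were at least 2-fold lower in cultured CLP cells (0.854% of all probes), 3 in B cells (3.97%), 1 in T-ALL (0.599%) and 3 in the CMP (3.12%). These shares cover probes of all intensities, whereas on the KSL array 19 of the 20 brightest lay below 0. Dye and genotype ran the same way on each array and cannot be told apart here.

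Between INS and WT the KSL culture differed less than the other 4 settings. Over 6094 bright probes, detected in both channels of all arrays and at or above the median of their mean log2 intensity, 12 were at least 2-fold apart. The set was chosen with these data in view. The share is 0.197%, with an exact 95% binomial interval of 0.102% to 0.344% that covers counting only. The nearest was T-ALL with 3.3% (2.86% to 3.78%). In the CLP culture the share was 9.75% and in the CMP, which also began as KSL cells, 15.4%. At 1.5-fold the shares were 1.72% in the KSL culture, 9.55% in T-ALL, 24.6% in the CLP culture and 34% in the CMP.

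The middle of the distribution was also narrower. In the KSL culture the quartiles of the log2 ratio over these probes were -0.10 and 0.15, against -0.26 and 0.38 in the CLP culture and -0.49 and 0.23 in the CMP. From the lowest to the highest 1%, KSL ratios ran from -0.46 to 0.62, CLP culture ratios from -1.13 to 2.23 and CMP ratios from -1.89 to 2.13. Pearson's r between INS and WT log2 levels across these probes was 0.991 in the KSL culture, 0.968 in T-ALL, 0.937 in the CMP, 0.925 for CLP cells and 0.852 for B cells. Both channels of an array share its spots, and probes are not independent replicates. Under each of 8 other settings the KSL culture had the smallest SD and the smallest 2-fold share of the 5 arrays over these probes. These are differences between single arrays, and no test of them was possible.

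**Figure D3:**
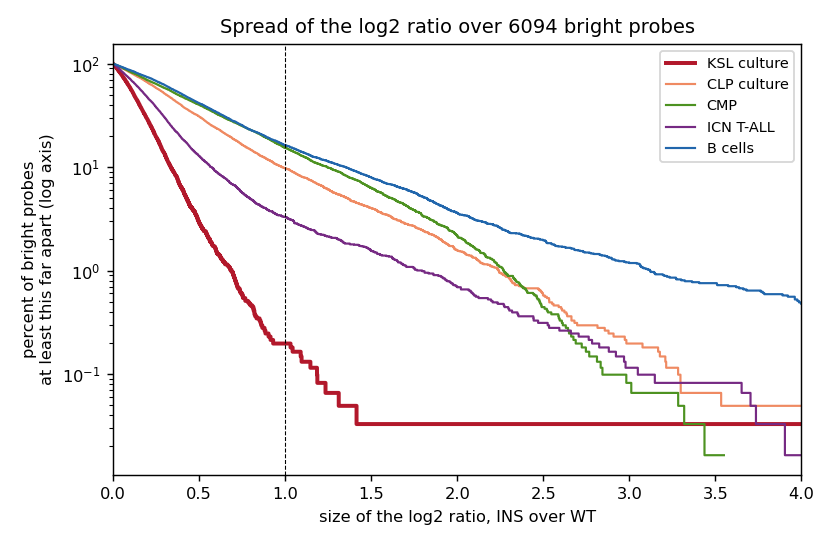
Percent of the 6094 bright probes (vertical log axis) whose log2 ratio of INS over WT was at least the size on the horizontal axis, 1 line per array, drawn up to a log2 size of 4, with a dashed line at 2-fold. At that line the KSL culture lies at 0.197% and the other arrays between 3.3% and 16.3%.

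Probes at least 2-fold apart on another array were then read on the KSL array, which took no part in choosing them. Over all 19244 detected probes the median KSL log2 ratio was 0.01, and 51.3% lay above 0. Of the 1015 probes at least 2-fold higher in INS in the CLP culture, 1005 were measured in the KSL culture. Their median was 0.13, 72.7% lay above 0, and 73 (7.26%) were at least 1.5-fold higher, against 0.894% of all probes. They make up 42.4% of the 172 probes at that line, and 7.19% of the CLP list. At least 1.5-fold lower were 8 (0.796%, against 0.151% of all).

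Probes higher in INS T-ALL gave similar values. Of 330 measured, 74.8% lay above 0 with a median of 0.13, and 21 (6.36%) were at least 1.5-fold higher and 0 lower. For the 926 probes higher in INS B cells the median was 0.06, with 63.6% above 0. For the 524 probes higher in INS CMP it was -0.05, with 39.7% above 0. This CMP median lay 0.17 above that of all probes under median centring without loess, so its side depends on the normalization.

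The lists of lower probes had medians at or above that of all probes. The CLP and T-ALL lower lists turned below it under some other settings. In each lower list the shares past 1.5-fold were larger on both sides than among all probes. The 156 measured probes lower in the INS CLP culture had a median of 0.03 in the KSL culture and 57.7% above 0. Medians were 0.08 for the 753 lower in the B cells, 0.01 for the 98 lower in T-ALL and 0.07 for the 540 lower in the CMP. In the lower tail, 6 of the CLP lower list (3.85%) were at least 1.5-fold lower in the KSL culture, 4 of the T-ALL lower list (4.08%), 10 of the CMP lower list (1.85%) and 7 of the B-cell lower list (0.93%), against 0.151% of all probes. At least 1.5-fold higher were 2 (1.28%), 4 (4.08%), 11 (2.04%) and 31 (4.12%) of the same lists, against 0.894% of all. The CLP lower list held 3 of the 4 probes that were 2-fold lower in the KSL culture, which lie in the bend of bright probes described above. The lists differed in brightness: their median mean log2 intensity ran from 6.84 for the T-ALL lower list, under the 7.03 of all probes, to 11.05 for the CMP higher list, with 9.06 for the CLP culture higher list. Of the 29 probes at least 1.5-fold lower on the KSL array, 26 lay in the brightest of the 10 intensity bins. The shares of all probes set beside these lists are thus not matched for intensity. The part of intensity in these medians and in the shares past 1.5-fold was not tested.

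**Figure D4:**
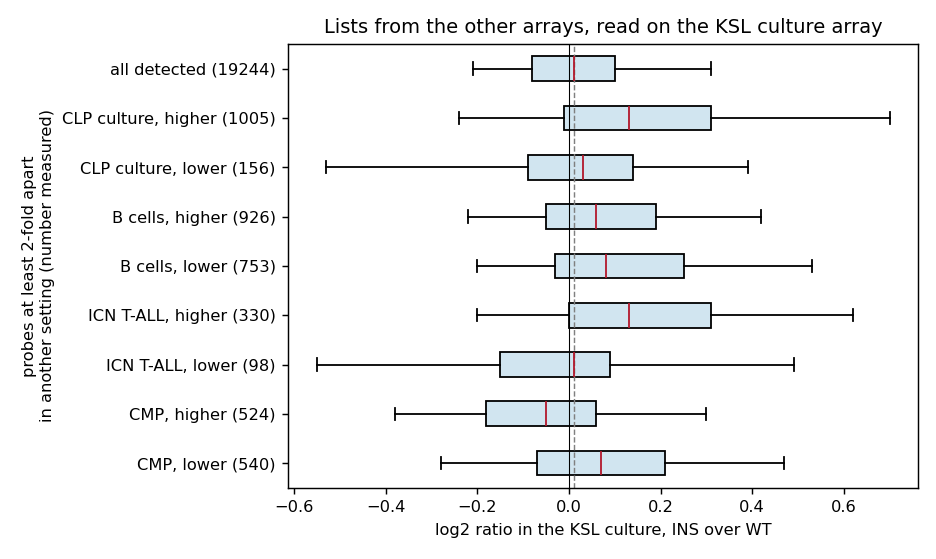
KSL culture log2 ratio of INS over WT (horizontal axis) for all detected probes and for the probes at least 2-fold higher or lower in INS on each other array, with the number measured in brackets; boxes span the quartiles with the median in red, and whiskers run from the 5% to the 95% point. The CLP culture and T-ALL higher lists have medians of 0.13, and the CMP higher list a median of -0.05, whose side turned under median centring.

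Across the 6094 bright probes, KSL log2 ratios had a Pearson r of 0.252 with those of T-ALL, 0.190 with the CLP culture, 0.011 with the B cells and -0.119 with the CMP. The first of these ran from 0.222 to 0.294 over the other settings and the CLP value from 0.180 to 0.251. With the local background subtracted, the B-cell value was 0.144 and the CMP value 0.013. These are descriptions across probes that share dye, array design and intensity, with no p.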

How the data were processed

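Cy3 (INS) and Cy5 (WT) signals of 5 arrays, 1 per comparison, were analysed, with the KSL culture as the subject. Per the file headers, the deposited scanner files hold linear spot intensity with the local background in separate columns, not normalized. The authors also deposited a table of log2 ratios that states no scale, centring or direction. Its KSL column had a median of 0, which gives the centring, and 5150 of 23473 probes empty. Against log2 of Cy3 over Cy5 with the blank mean subtracted, r was 0.647 across 18310 probes. The sign of r gives the direction. On the other arrays r ran from 0.882 to 0.938. The background used is unknown. The table served as an alternative.

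In limma 3.58.1 (R 4.3.3), normexp with offset 50 was applied to the foreground medians, without the local background, which was raised around bright spots. Loess (span 0.3) followed, with weight 0 for control spots. Spots marked NG in the files were left out. Blank spots (2736, 5% trimmed at each end) set the detection limit of 2 SD. A probe counted as higher or lower from 2-fold on, with 1.5-fold as a wider line. With 1 array no test was made; precision is limited by that number. The steps were run on simulated data with known changes. These were put only into probes well above the blank level, so this check of direction and rough size does not cover dim probes. Named probes are the 2 highest and 2 lowest by ratio among unsaturated probes with both channels detected and an intensity not under the median. The members and lists were chosen with earlier results of these data known. Gene lists for KSL, lymphoid, myeloid and other cells could not be used without gene names. Alternatives were median centring, normexp with the local background, plain subtraction of it or of the blank mean, offset 10, loess within printing blocks, detection at 3 SD, no filter on dim probes, means of pixels, and the authors' table.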

Additional observations from a re-analysis of the deposited data

Results flagged for a closer look

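Some results differed between settings or came from spots outside the comparison. M300003688 had a log2 ratio of 4.56 in the KSL culture and of -1.24 in T-ALL, so it lay on opposite sides of 0 in these settings. M200001877 had -1.42 in the KSL culture and 4.52 in the CLP culture. Neither difference was tested, since each setting has 1 array. Spots without a probe passed the detection limit on the KSL culture array in 45.2% of cases in WT and 18.9% in INS and signals there reached 42 and 117.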

How the results depend on the processing

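The 31 higher and 4 lower probes of the KSL culture kept their direction in each of the 8 settings that change the ratio. Of the 31, 26 to 31 stayed at least 2-fold higher, and of the 4, 3 or 4 stayed at least 2-fold lower. Counts moved more. Higher and lower probes were 1193 and 1202 after subtraction of the local background, 709 and 663 after that of the blank mean (added after the data had been seen), and 221 and 44 in the authors' table. Higher probes were 128 with median centring, which put the median of all probes at 0.12, 69 with normexp and the local background, and 58 with offset 10. Lower probes were 9 with means of pixels. The 2-fold share of bright probes was 1.05% with median centring, 1.99% with the local background subtracted, 0.788% with normexp and the local background, and 0.558% in the authors' table. The cause was not tested. Relative to all probes, the KSL median of the list lower in the CLP culture was -0.04 after subtraction of the local background and -0.02 with normexp on it. That of the list lower in T-ALL was -0.12 with median centring, -0.01 with loess within printing blocks, -0.06 in the authors' table and -0.01 with means of pixels. That of the list higher in the CMP was 0.17 with median centring. Dim probes are limited by the blank level: a WT signal of 22 was 1.18 times the limit. No paired analysis was possible because each group has 1 array.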
